A study of Mus musculus with 64 samples.

Results

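The Hoxb cluster holds 10 genes on mouse chromosome 11, Hoxb1 to Hoxb9 and Hoxb13, and these 10 of 21938 protein-coding genes were taken by name, whatever their values. Each gene was given a window of its GENCODE gene body and 5 kb on either side, and a ChIP-seq peak was assigned to every window that held its summit. The study immunoprecipitated SOX2, β-catenin and the TCF/LEF proteins LEF1, TCF7L1 (labelled TCF3) and TCF7L2 (labelled TCF4) from 4 kinds of mouse culture with 3 biological replicates each, which gave 60 peak lists. The comparisons ask where SOX2 and the WNT effectors sit at the Hoxb genes when SOX2 is high or low and when cells have left pluripotency.

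The wild-type cells were XY HM1 TetON embryonic stem cells of the HM1 strain. Naive ESC were those cells in 2i medium, which holds the WNT pathway activator CHIR99021 and the MEK inhibitor PD0325901. CEpiLC, caudal epiblast-like cells, were the same line after 2 days of bFGF with the WNT secretion inhibitor LGK974, followed by the addition of CHIR99021 until day 3. SOX2-ON and SOX2-OFF were a Sox2-/- line derived from the same parent, selected from edited clones, in which a doxycycline-inducible Sox2 cDNA stood at Hprt and the rtTA activator at Rosa26. Both went through the CEpiLC protocol, with 1 µg/ml doxycycline kept (SOX2-ON) or withdrawn (SOX2-OFF), and SOX2 protein decays gradually after withdrawal. Naive ESC and SOX2-ON are thus the high-SOX2 cultures and CEpiLC and SOX2-OFF the low-SOX2 cultures. CHIR99021 was present in all 4, naive ESC and CEpiLC differ in medium as well as in SOX2, and CEpiLC and the SOX2-TetON cultures differ in Sox2 genotype and line as well as in SOX2 level. Within each of these comparisons those factors cannot be told apart.

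Hoxb genes encode homeodomain transcription factors that assign position along the head to tail axis. Their order on the chromosome matches the order in which they are switched on in the caudal embryo and their front limits of expression, with Hoxb1 to Hoxb4 patterning the hindbrain, Hoxb5 to Hoxb9 the neck and trunk, and Hoxb13 the tail. WNT signalling acts on them through β-catenin, which has no DNA-binding domain of its own and is held on DNA by TCF/LEF proteins, and through CDX factors, which also bind Hox genes. All 10 genes lie on the plus strand, in the order Hoxb13, Hoxb9 down to Hoxb1.

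Lists of 1628 to 991719 peaks were deposited, and 10 of the 60 held fewer than 20000, 6 of them from CEpiLC. A longer list covers more genes, so each list was cut to its 20000 strongest peaks by fold enrichment over input. In these, between 29.3% and 32.5% of all gene and library pairs carried a peak in each condition, against 48.5% to 75.0% in the full lists. The rank score used below is the log2 of 1 place past the end of a full 20000-peak list over the rank of a gene's strongest peak: 0 means no peak among the 20000 strongest, and 1 unit means a rank 2 times nearer the top. Hoxb windows spanned 12505 to 34605 bp, with a median of 27425 bp over all genes, and neighbouring windows overlap. Hoxb7 and Hoxb8 in particular share their strongest peaks and are not independent of each other. The strongest peak of a gene can lie at a different site in each library.

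Sites in the cluster were built by linking summits up to 300 bp apart. The 6 sites with a peak in the most libraries are printed because the results turn on them, each as the plus strand of GRCm38 over 201 bases centred on the strongest summit. Capitals mark, on either strand, the SOX motifs CATTGT and CTTTGT, the TCF motifs CTTTGAA and CTTTGAT, the CDX motifs TTTATGG and TTTATTG and the T/BRA motif GGTGTG. The SOX and TCF motifs share their first letters CTTTG.
182 bp before Hoxb1, chr11:96365470-96365670: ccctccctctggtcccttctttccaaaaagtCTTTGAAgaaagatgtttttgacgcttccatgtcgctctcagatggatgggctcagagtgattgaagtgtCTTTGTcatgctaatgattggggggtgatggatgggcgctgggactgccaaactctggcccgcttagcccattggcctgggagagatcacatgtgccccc
3032 bp after the Hoxb1 start, past its 3′ end, chr11:96368684-96368884: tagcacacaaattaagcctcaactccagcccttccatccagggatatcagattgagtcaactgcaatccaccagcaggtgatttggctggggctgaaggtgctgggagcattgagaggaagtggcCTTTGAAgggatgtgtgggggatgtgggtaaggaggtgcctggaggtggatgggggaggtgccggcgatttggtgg
1765 bp before Hoxb4, chr11:96316402-96316602: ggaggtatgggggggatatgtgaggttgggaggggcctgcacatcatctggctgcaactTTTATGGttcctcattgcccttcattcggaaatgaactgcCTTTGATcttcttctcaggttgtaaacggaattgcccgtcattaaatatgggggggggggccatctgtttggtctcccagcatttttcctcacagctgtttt
Hoxb4 intron, chr11:96319294-96319494: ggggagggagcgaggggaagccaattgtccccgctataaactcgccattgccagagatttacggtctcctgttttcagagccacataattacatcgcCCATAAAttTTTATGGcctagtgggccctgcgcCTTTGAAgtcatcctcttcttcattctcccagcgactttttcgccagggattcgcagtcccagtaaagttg
Hoxb9 first coding exon and the intron after it, chr11:96271940-96272140: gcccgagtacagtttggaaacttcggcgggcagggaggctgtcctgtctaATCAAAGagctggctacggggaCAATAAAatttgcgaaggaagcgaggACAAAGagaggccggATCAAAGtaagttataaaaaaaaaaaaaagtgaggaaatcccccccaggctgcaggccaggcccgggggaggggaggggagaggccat
4017 bp before Hoxb13, chr11:96190199-96190399: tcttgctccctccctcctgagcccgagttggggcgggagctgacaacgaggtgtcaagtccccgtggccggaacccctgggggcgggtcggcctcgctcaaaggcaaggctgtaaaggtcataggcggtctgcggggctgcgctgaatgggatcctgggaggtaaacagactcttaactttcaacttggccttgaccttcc

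The summit before Hoxb1 lies inside its RefSeq promoter, which shares 163 bases with the first window above. The 81 bases between that window and the gene start, chr11:96365671-96365751 on the plus strand, are shown to join the site to the gene and hold none of these motifs, and the promoter's bases past the start are not printed: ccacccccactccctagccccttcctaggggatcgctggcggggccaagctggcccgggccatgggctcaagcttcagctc

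In CEpiLC the Hoxb genes carried peaks of most factors, and least often of TCF7L1. Of 150 gene and library pairs, 126 (84.0%) had a peak among the 20000 strongest in CEpiLC, compared with 62 (41.3%) in naive ESC, 79 (52.7%) in SOX2-ON and 52 (34.7%) in SOX2-OFF. By factor, a CEpiLC peak was present in all 30 of 30 SOX2 pairs, 29 LEF1, 28 β-catenin, 24 TCF7L2 and 15 TCF7L1 pairs. These are bulk cultures, in which fewer cells with a bound site and less binding per cell cannot be told apart. In full lists the 4 conditions were closer, at 92.7% in CEpiLC, 85.3% in naive ESC, 88.0% in SOX2-ON and 74.7% in SOX2-OFF. Over all genes the full lists gave 48.5% in CEpiLC, 75.0% in naive ESC, 74.5% in SOX2-ON and 65.3% in SOX2-OFF.

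**Figure D1:**
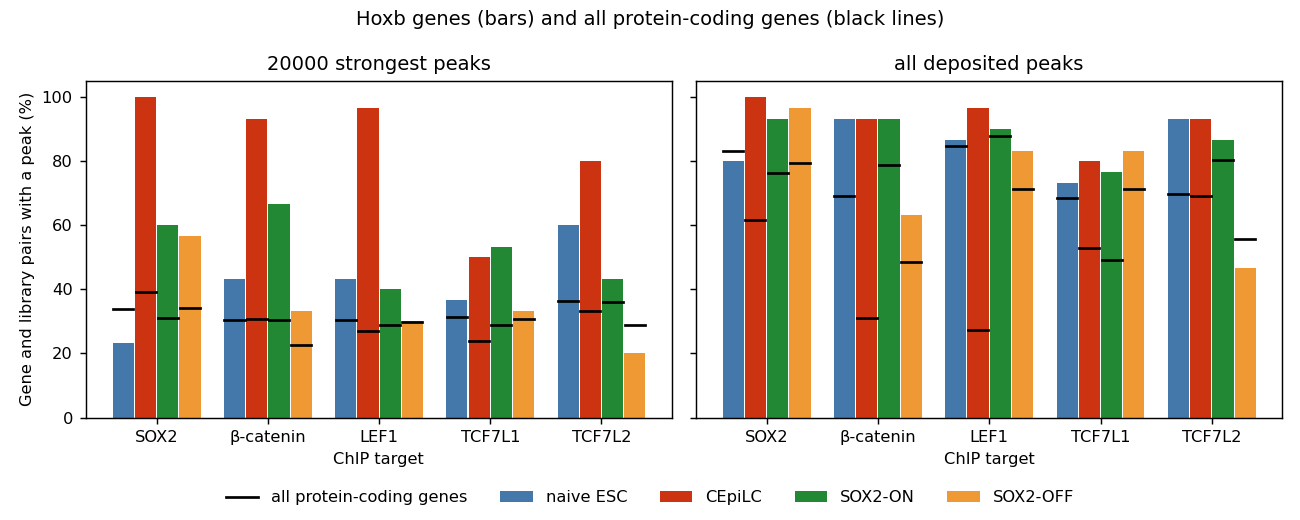
Share of gene and library pairs with a peak (%), for the Hoxb genes (bars, 10 genes and 3 libraries each) and for all protein-coding genes (black lines), by ChIP target and condition, in the 20000 strongest peaks (left) and in all deposited peaks (right). In the left panel the CEpiLC bars stand at 100.0% (SOX2), 93.3% (β-catenin) and 96.7% (LEF1), while the line for all genes in CEpiLC lies between 23.9% and 39.1%.

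**Figure D2:**
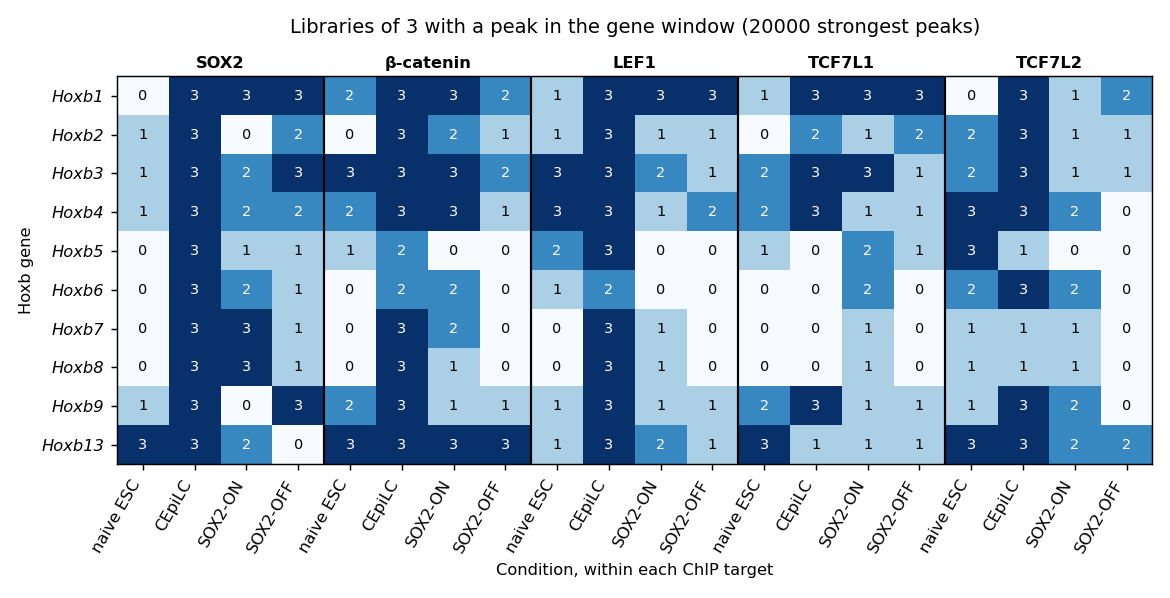
Number of the 3 libraries with a peak in the window of each Hoxb gene among the 20000 strongest peaks, by ChIP target (blocks) and condition (columns). CEpiLC holds a count of 3 for all 10 genes in SOX2, 8 in β-catenin, 9 in LEF1, 4 in TCF7L1 and 7 in TCF7L2.

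Between CEpiLC and naive ESC, a gene was called gained when all 3 CEpiLC libraries of a target and none of the 3 naive libraries had a peak. SOX2 gained 5 Hoxb genes, Hoxb1, Hoxb5, Hoxb6, Hoxb7 and Hoxb8, where 3.51% of all genes were gained. β-catenin gained Hoxb2, Hoxb7 and Hoxb8 (3.41% of all genes), LEF1 gained Hoxb7 and Hoxb8 (1.34%), TCF7L2 gained Hoxb1 (0.852%), and TCF7L1 gained none (0.219%). Over the 5 targets, 11 of 50 gene and target pairs were gained, where 1.87% of all pairs were. None of the 50 was lost, where 2.6% of all pairs were.
These counts depend on list length. With every deposited peak, 0 of 50 pairs were gained, where 0.0246% of all pairs were. With every library of a target cut to its shortest list, 12 were gained. The call asks for 3 libraries against 0, for which an exact permutation test of 3 against 3 cannot go below a p of 0.1, and it carries no test.

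The strength of the peaks was compared with limma on the rank score, fitted over all genes with a peak, a test added after the data had been seen. Of the 50 pairs, 22 were higher in CEpiLC than in naive ESC at an adjusted p below 0.05, where 2.76% of all pairs were, and none was lower, where 3.48% were. These were 8 genes for β-catenin (7.28% of all genes), 7 for SOX2 (4.97%), 4 for TCF7L1 (0.629%), 2 for LEF1 (0.935%) and 1 for TCF7L2 (0.397%). The median difference over the Hoxb genes was 2.88 for β-catenin, 2.75 for LEF1, 2.72 for SOX2, 1.16 for TCF7L1 and 0.79 for TCF7L2. Over all genes tested it was 0.0 for each. Without replicate 1, 2 or 3 the fit called 17, 6 and 7 pairs, with the log2 fold in place of the rank 7, with full lists 9 and with gene bodies alone 9.

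Hoxb1, the most anterior gene, is required for the identity of a single hindbrain segment and maintains its own expression through an element just before the gene. It showed the largest change of the 10 genes for SOX2. The strongest SOX2 peak in its window ranked 121, 15 and 19 in the 3 CEpiLC libraries, with a fold enrichment over input of 34.8, 79.3 and 89.5. In naive ESC it ranked 59100, 21577 and 58894, with a fold of 7.73, 6.1 and 4.48. The groups did not overlap on either scale. The rank score differed by 9.26 ± 0.72 (SE, limma, n = 3 and 3, adjusted p = 3.97e-05). The call held under every alternative tried except gene bodies alone, which leave out the promoter.
In SOX2-OFF the peak was also near the top, at ranks 120, 267 and 132 and a fold of 27.3, 31.1 and 47.8. In SOX2-ON the strongest peak in the window ranked 14139, 10729 and 14024, with a fold of 6.8, 7.45 and 8.1. The first of these lies 5271 bp after the Hoxb1 start, and in that library the site before Hoxb1 ranked 86987. Both low-SOX2 cultures therefore lay above both high-SOX2 cultures in every library.

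The WNT effectors stood at Hoxb1 in CEpiLC as well. β-catenin ranked 449, 261 and 402 there, 4025, no peak and 10102 in naive ESC, and 5246, 2093 and 5083 in SOX2-ON. LEF1 ranked 121, 87 and 211 in CEpiLC. TCF7L1 ranked 939, 510 and 541, the first of these in a list of only 1628 peaks. All 5 targets were higher at Hoxb1 in CEpiLC than in naive ESC, by 9.26 for SOX2, 6.09 ± 1.17 for LEF1 (adjusted p = 0.0287), 4.69 ± 0.89 for β-catenin (adjusted p = 0.00375), 4.66 ± 0.83 for TCF7L1 (adjusted p = 0.00545) and 4.38 ± 0.64 for TCF7L2 (adjusted p = 0.0112, SE, limma).
At Hoxb1 the LEF1 and TCF7L2 calls were lost without any 1 of the 3 replicates, the TCF7L1 call without replicate 2 and without replicate 3, and the β-catenin call without replicate 3. With gene bodies alone SOX2, LEF1, β-catenin and TCF7L1 were lost and TCF7L2 was not fitted. With log2 fold all but SOX2 and LEF1 were lost, and with 10 kb on either side TCF7L1 was lost. With full lists TCF7L1 and TCF7L2 were lost.

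Hoxb2 and Hoxb3, which also pattern the hindbrain, and Hoxb4, at the hindbrain to spinal cord boundary, followed. At Hoxb4 the strongest β-catenin peak ranked 63, 177 and 396 in CEpiLC, with a fold of 55.2, 52.8 and 30.1. The strongest peak in the window ranked 1532, 73104 and 9235 in naive ESC. It ranked 4490, 17425 and 16539 in SOX2-ON, and 32452, no peak and 14348 in SOX2-OFF. These are not all at the same site. The CEpiLC peaks lie 1765 bp before Hoxb4, where β-catenin ranked 5819, no peak and 11656 in naive ESC. No library of the other conditions reached the CEpiLC range. The rank score was 5.32 ± 0.93 higher in CEpiLC than in naive ESC (SE, limma, adjusted p = 0.00216), a call lost without replicate 2 and with log2 fold.
At Hoxb2 β-catenin ranked 1887, 4120 and 3525 in CEpiLC and had no peak among the 20000 strongest in naive ESC, a difference of 2.73 ± 0.41 (SE, limma, adjusted p = 0.000859), a call lost with full lists and with lists of equal length. SOX2 at Hoxb2 was higher by 1.77 ± 0.73 and did not pass (limma, adjusted p = 0.176). At Hoxb3 SOX2 ranked 1399, 2119 and 2792 in CEpiLC, and these peaks lie in the Hoxb4 intron, which its window includes. The β-catenin peaks of Hoxb3 in CEpiLC, at ranks 282, 705 and 931, lie at that site too. Calls at Hoxb3 and Hoxb4 are therefore not independent.

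Of the trunk genes, Hoxb7, Hoxb8 and Hoxb9 rose in CEpiLC for both SOX2 and β-catenin, and Hoxb5 and Hoxb6 did not pass for any target. Hoxb9, one of the last trunk genes to be switched on, had its β-catenin peak at ranks 723, 911 and 2378 in CEpiLC, compared with 14193, 35996 and 15862 in naive ESC. The CEpiLC libraries lay apart from the naive ones, with a difference of 3.83 ± 0.53 (SE, limma, adjusted p = 0.000463), which held without any 1 replicate and was lost with full lists and with log2 fold. For SOX2 at Hoxb9 the difference was 2.68 ± 0.57 (SE, limma, adjusted p = 0.012), lost without replicate 2, without replicate 3, with full lists and with log2 fold.
At Hoxb8 β-catenin ranked 1229, 3974 and 4144 in CEpiLC and below 20000 in all 3 naive libraries, at 26942, 114015 and 43636. The difference was 2.88 ± 0.49 (SE, limma, adjusted p = 0.00194), lost with full lists and with lists of equal length. TCF7L1 had no peak among the 20000 strongest at Hoxb7 or Hoxb8 in either condition.
Among the 20000 strongest, Hoxb5 and Hoxb6 had SOX2 peaks in all 3 CEpiLC libraries and none in naive ESC, but at ranks of only 17952, 9765 and 17409 in CEpiLC, the same peaks for both genes. Their SOX2 difference was 0.46 for each gene (limma, adjusted p = 0.309 for Hoxb5 and 0.395 for Hoxb6).

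Hoxb13, which acts at the tail end and lies apart from the rest of the cluster, carried peaks in naive ESC too. Its β-catenin peak ranked 4104, 9624 and 2445 in naive ESC and 1095, 702 and 347 in CEpiLC. Its SOX2 peak ranked 18441, 11421 and 10926 in naive ESC and 1285, 1467 and 840 in CEpiLC, and lay below 20000 in all 3 SOX2-OFF libraries. The SOX2 difference between CEpiLC and naive ESC was 3.5 ± 0.5 (SE, limma, adjusted p = 0.00159), and that for β-catenin 2.83 ± 0.63 (adjusted p = 0.00916), which was lost without any 1 replicate. The β-catenin call was also lost with full lists, with ranking by −log10 p, with only peaks of −log10 q of at least 5 and with log2 fold. The SOX2 call was lost without replicate 2, with ranking by −log10 p and with log2 fold. Neither was fitted with gene bodies alone.

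**Figure D3:**
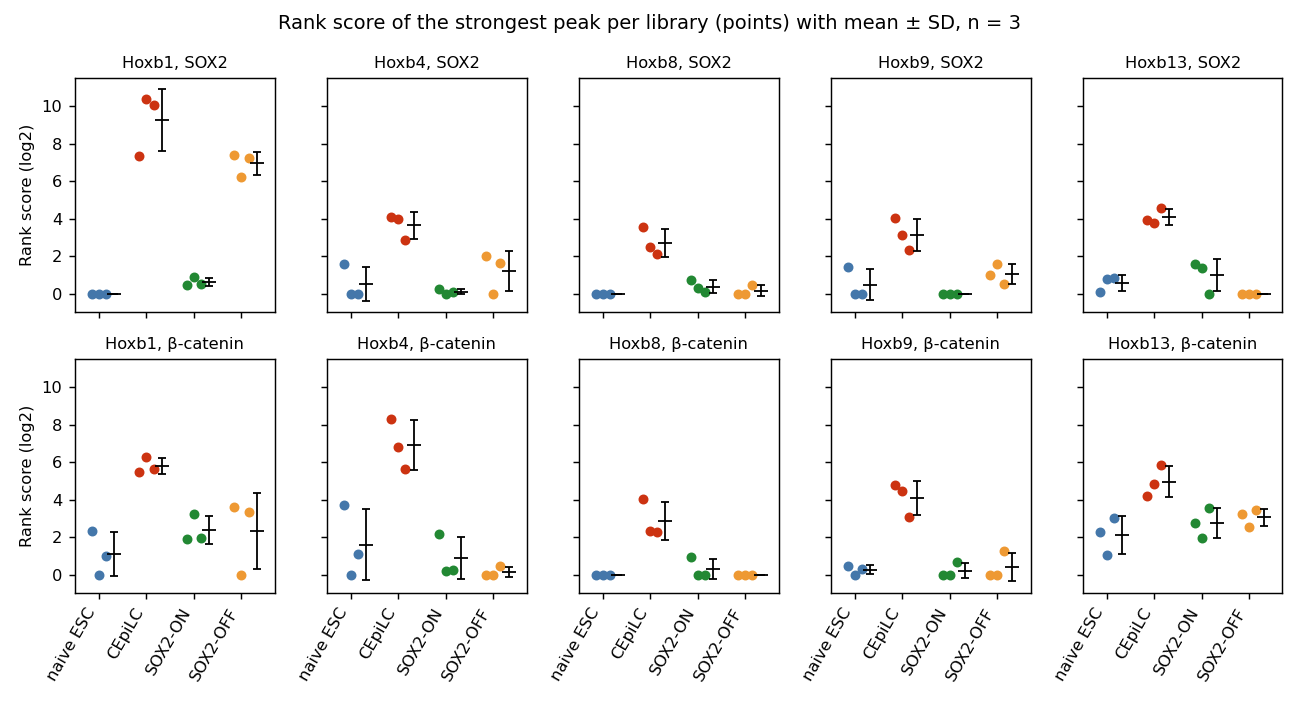
Rank score (log2 units, 0 for no peak among the 20000 strongest) of the strongest SOX2 (top) and β-catenin (bottom) peak at 5 Hoxb genes, 1 point per library, with the mean and SD of the 3 libraries in black. At Hoxb1 the SOX2 points of CEpiLC (7.37 to 10.38) and SOX2-OFF (6.23 to 7.38) stand far above naive ESC (0) and SOX2-ON (0.5 to 0.9).

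The SOX2-TetON cultures show how the genes behave when doxycycline is the only difference between 2 groups. SOX2 itself was lower in SOX2-ON than in SOX2-OFF at Hoxb1, with a difference of -6.31 ± 0.72 on the rank score (SE, limma, adjusted p = 0.000622), and at Hoxb3, with a difference of -2.48 ± 0.61 (adjusted p = 0.0332). These were 2 of 50 pairs, where 0.879% of all pairs were lower in SOX2-ON, and none of the 50 was higher. For the strongest peak in each window the direction is the one seen between naive ESC and CEpiLC, with the rank nearer the top where SOX2 was low. At Hoxb3 the comparisons rest on different sites, so the shared direction there is not that of the same peak. The Hoxb3 call was lost without replicate 2, without replicate 3, with full lists and with log2 fold, and the Hoxb1 call without replicate 3 and with gene bodies alone.
At Hoxb3 the SOX2 peak ranked 2675, 1379 and 1921 in SOX2-OFF and 5682, 22989 and 10902 in SOX2-ON. By the count of libraries, 1 pair differed: SOX2 at Hoxb9, which had a peak in every SOX2-OFF library and in 0 of the SOX2-ON ones, where 0.687% of all pairs did so. Its strongest peak in the window ranked 9794, 6588 and 13632 in SOX2-OFF and 36333, no peak and 52920 in SOX2-ON. These are not all at the same site: the rank of 9794 lies 1683 bp after the Hoxb9 start, at a site found in 1 library. No single site in the window had SOX2 in all 3 SOX2-OFF libraries. None of the 50 pairs showed the opposite, with a peak in every SOX2-ON library alone, where 1.12% of all pairs were. This balance was not stable: leaving out 1 replicate gave 0 to 10 pairs in SOX2-ON alone and 1 to 2 in SOX2-OFF alone, and asking for 2 more libraries of 3 gave 11 and 2. SOX2 at Hoxb9 was no longer called with full lists, with gene bodies alone or with 10 kb on either side.
For β-catenin and the TCF/LEF proteins no Hoxb gene passed between SOX2-ON and SOX2-OFF in limma. Few genes did: 2.96% of all genes were higher and 1.53% lower in SOX2-ON for β-catenin, and at most 0.251% in either direction for LEF1, TCF7L1 and TCF7L2, so 0 of 10 is near the background. β-catenin at Hoxb1, for instance, ranked 5246, 2093 and 5083 in SOX2-ON and 1635, no peak and 1937 in SOX2-OFF, a difference of 0.06 ± 0.89 (SE, limma, adjusted p = 1.0). The library without a peak, replicate 2, held only 3423 peaks, and its score of 0 enters this difference. The SOX2-OFF ranks of 1635 and 1937 were nearer the top than every SOX2-ON rank.

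CEpiLC and SOX2-OFF are both low in SOX2 and went through the same protocol, yet differed at the Hoxb genes. In 3 of 3 CEpiLC and 0 of 3 SOX2-OFF libraries were 9 of 50 pairs, where 1.44% of all pairs were. They were LEF1 at Hoxb5, Hoxb7 and Hoxb8, TCF7L2 at Hoxb4, Hoxb6 and Hoxb9, β-catenin at Hoxb7 and Hoxb8, and SOX2 at Hoxb13. None of the 50 was the other way round, where 0.682% of all pairs were. The 9 became 13 to 19 without 1 replicate, 5 with ranking by −log10 p and 0 with full lists.
In limma 11 pairs were higher in CEpiLC than in SOX2-OFF, where 0.749% of all pairs were, among them β-catenin at Hoxb2, Hoxb3, Hoxb4, Hoxb7, Hoxb8 and Hoxb9. β-catenin at Hoxb4 differed most, by 6.77 ± 0.93 (SE, limma, adjusted p = 0.00676). Without replicate 1, 2 or 3, and with log2 fold, no pair was called. At Hoxb1 SOX2 was 2.31 ± 0.72 higher in CEpiLC than in SOX2-OFF and did not pass (SE, limma, adjusted p = 0.153).
Short SOX2-OFF lists bear on these values. In β-catenin, SOX2-OFF replicate 2 held only 3423 peaks, and had a peak at Hoxb3 and Hoxb13 alone of the 10 genes. In TCF7L2, SOX2-OFF replicate 2 held 4134 peaks and had none at any of the 10 genes. With every library of a target cut to its shortest list, β-catenin at Hoxb2, Hoxb7 and Hoxb8 lost the limma call, while β-catenin at Hoxb3, Hoxb4 and Hoxb9 and TCF7L2 at Hoxb1 stayed called.

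Against SOX2-ON, 20 of 50 pairs were higher in CEpiLC in limma, where 2.31% of all pairs were, 7 each for SOX2 and β-catenin. Without replicate 1, 2 or 3, 6, 3 and 2 were called. SOX2 at Hoxb1 was 8.63 ± 0.72 higher (SE, limma, adjusted p = 0.000201) and stayed called without any 1 replicate. In 3 of 3 CEpiLC and 0 of 3 SOX2-ON libraries were 3 pairs, SOX2 at Hoxb2 and Hoxb9 and LEF1 at Hoxb5, where 1.75% of all pairs were. None was the other way round, where 1.4% of all pairs were. The 3 became 10 at equal list lengths, 6 to 10 without 1 replicate and 0 with full lists. The 3 comparisons with CEpiLC use the same CEpiLC libraries and are not independent.

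Across both lines, high-SOX2 cultures were compared with low-SOX2 cultures by an exact two-sided permutation test of the rank score within each line, whose smallest p is 0.005. After Benjamini-Hochberg adjustment 0 of 50 Hoxb pairs passed, and 0 of 87687 pairs over all genes, with a smallest adjusted p of 0.102. At an unadjusted p below 0.05 there were 10 Hoxb pairs, all 10 lower in the high-SOX2 cultures, where 8.31% of all pairs passed in either direction. SOX2 at Hoxb1, Hoxb3 and Hoxb9 and LEF1 at Hoxb1 were at the smallest p the permutations allow, 0.005. On the same contrast limma called 19 of 50 pairs, all lower in the high-SOX2 cultures, where 2.43% of all pairs were.
The 2 lines were then compared with each other. The permutation test of the difference between the lines passed for 0 of 50 pairs, with 12 at an unadjusted p below 0.05, where 4.39% of all pairs were. limma called 8 pairs, in each of which naive ESC minus CEpiLC was lower than SOX2-ON minus SOX2-OFF, where 0.723% of all pairs were. They were SOX2 at Hoxb7, Hoxb8 and Hoxb13 and β-catenin at Hoxb2, Hoxb4, Hoxb7, Hoxb8 and Hoxb9. In these pairs SOX2-ON minus SOX2-OFF ran from -0.19 (β-catenin at Hoxb9, the only negative value) to 0.99 (SOX2 at Hoxb13). None of them passed between SOX2-ON and SOX2-OFF in limma.

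In the windows, 521 peaks of the 20000 strongest fell into 97 sites, 38 of them found in 1 library. In CEpiLC 21 sites had a peak in all 3 libraries of at least 1 target, against 2 in naive ESC, 3 in SOX2-ON and 4 in SOX2-OFF. Of the 175 site and target pairs with a peak in CEpiLC or naive ESC, 25 were in 3 of 3 CEpiLC and 0 of 3 naive libraries, where 2.15% of such pairs were in the whole genome. None was in 3 of 3 naive and 0 of 3 CEpiLC libraries, where 4.1% were in the whole genome.

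**Figure D4:**
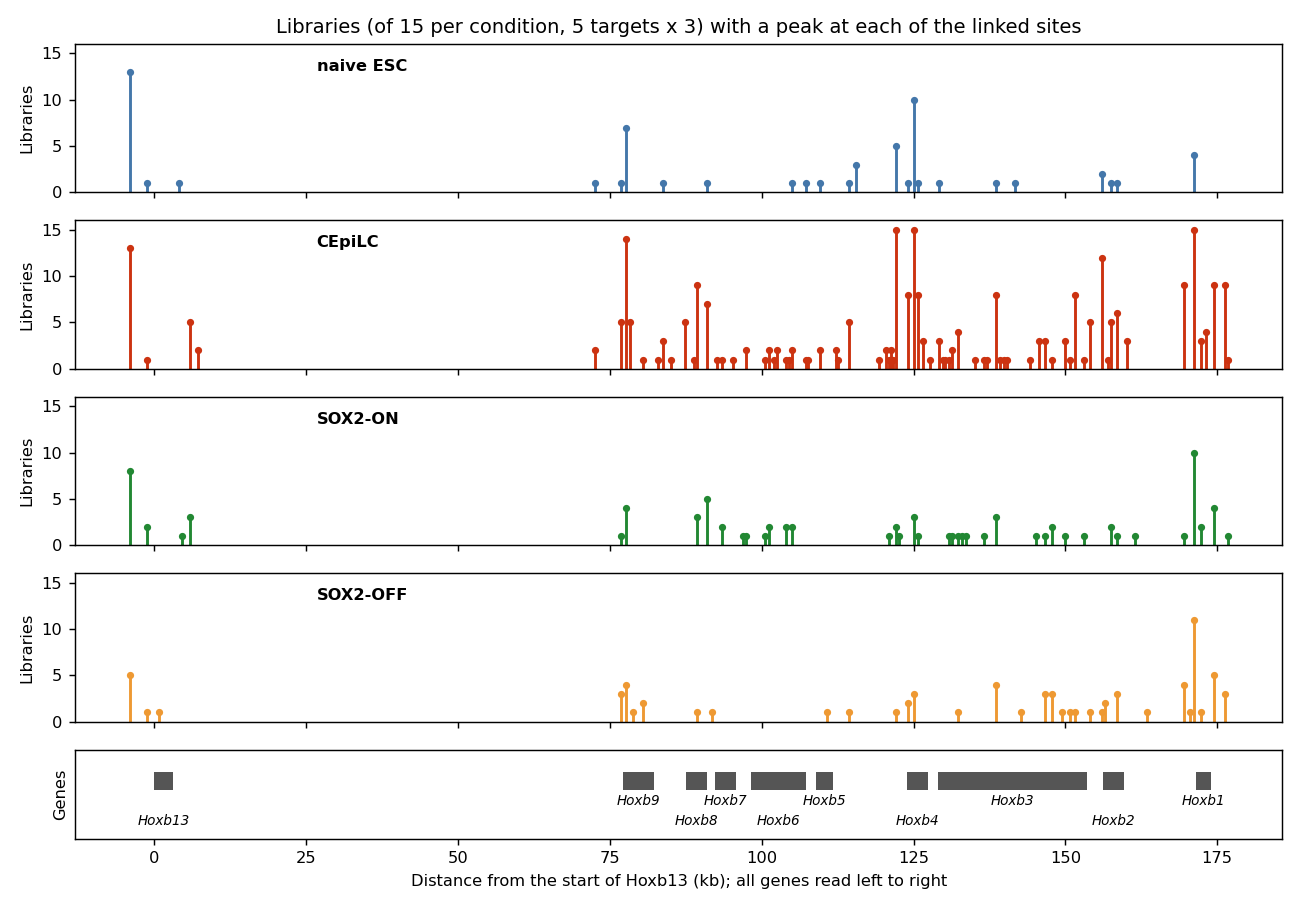
Number of libraries, of 15 per condition, with a peak among the 20000 strongest at each of the 97 sites, placed by distance from the start of Hoxb13 (kb), with gene bodies at the bottom. CEpiLC has 15 of 15 libraries at 3 sites, before Hoxb4, in the Hoxb4 intron and before Hoxb1, which have 5, 10 and 4 in naive ESC.

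The site 182 bp before Hoxb1, between genes by the annotation, had a peak in 40 of 60 libraries, the most in the cluster. In the whole genome 873 of 570327 sites reached 40. It was present in 15 of 15 CEpiLC, 11 SOX2-OFF, 10 SOX2-ON and 4 naive ESC libraries. Its SOX motif CTTTGT, printed in capitals above, starts 1 base after the summit, at chr11:96365571-96365576.
The site 1765 bp before Hoxb4 lies between genes and was found in 15 of 15 CEpiLC libraries, 5 naive ESC, 2 SOX2-ON and 1 SOX2-OFF. Its β-catenin fold was 55.2, 52.8 and 30.1 in CEpiLC, and 12.9, no peak and 7.13 in naive ESC. SOX2 was there in CEpiLC, at a fold of 15.4, 15.3 and 12.2, and had no peak of any strength in SOX2-ON or SOX2-OFF. A TCF motif, CTTTGAT, covers the summit base.

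The site in the Hoxb4 intron was in 15 CEpiLC and 10 naive ESC libraries, and in 3 each of SOX2-ON and SOX2-OFF. LEF1 was there in naive ESC at a fold of 6.95, 16.2 and 10.2, and in CEpiLC at 19.5, 20.7 and 15.9. It had no LEF1 peak in SOX2-OFF. The pair of CDX motifs at this site lies at the summit and 9 bp after it.
The site in the first coding exon of Hoxb9 was in 14 CEpiLC libraries, 7 naive ESC, 4 SOX2-ON and 4 SOX2-OFF. It holds a SOX motif at the summit, with TCF motifs 47 bp before and 16 bp after it.

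The site 4017 bp before Hoxb13 was in 13 naive ESC and 13 CEpiLC libraries, 8 SOX2-ON and 5 SOX2-OFF, the only one of the 11 described with as many in naive ESC as in CEpiLC. β-catenin had a peak there in all 12 libraries, at a fold of 16.2, 7.4 and 18.6 in naive ESC, 19.2, 24.3 and 32.7 in CEpiLC, 14.3, 6.97 and 19.3 in SOX2-ON and 14.6, 2.59 and 18.0 in SOX2-OFF. The ranges overlap between conditions except that CEpiLC lies above naive ESC and SOX2-OFF. None of the motifs searched is in its window.

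**Figure D5:**
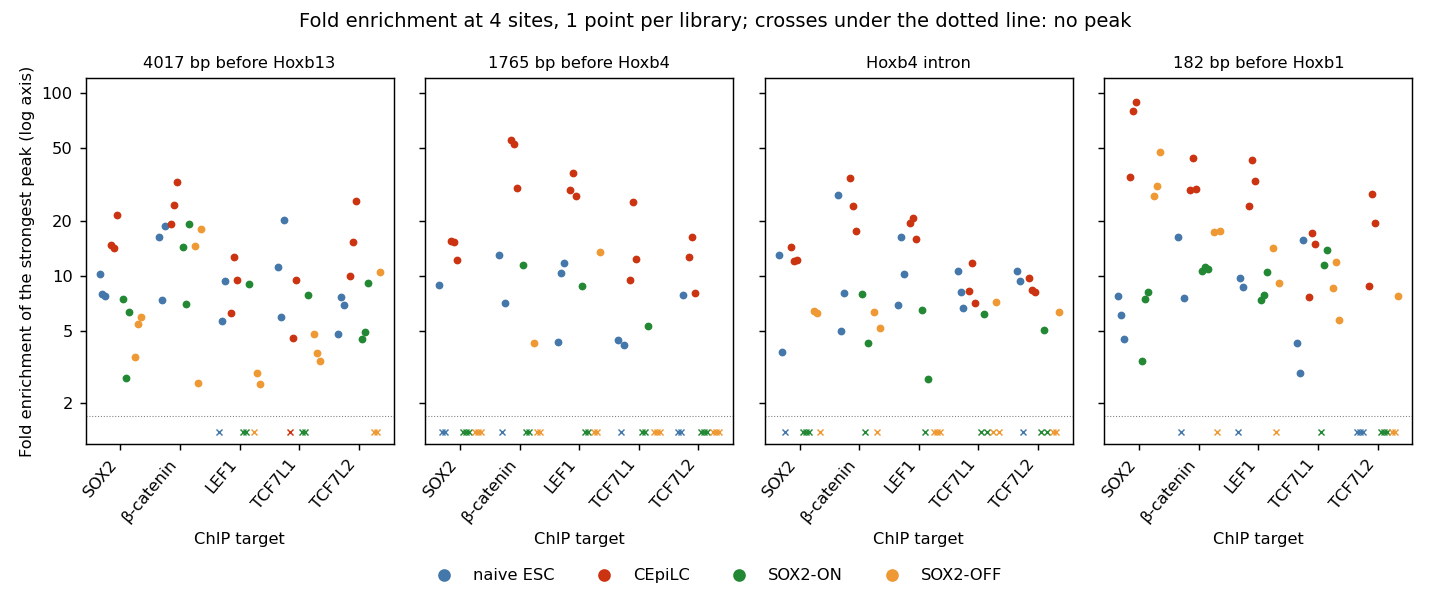
Fold enrichment over input of the strongest peak (log axis) at 4 sites, by ChIP target and condition, 1 point per library from all deposited peaks, with crosses for libraries with no peak there. At the site before Hoxb1 SOX2 reaches 34.8 to 89.5 in CEpiLC and 27.3 to 47.8 in SOX2-OFF, above the other conditions; fold depends on depth and input and is less comparable between libraries than rank.

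The other 6 sites were weaker. That 3032 bp after the Hoxb1 start was in 9 CEpiLC, 5 SOX2-OFF, 4 SOX2-ON and 0 naive ESC libraries, and that 4829 bp after it in 9, 3, 0 and 0. At the latter β-catenin had a fold of 12.3, 16.9 and 21.4 in CEpiLC and no peak of any strength in naive ESC. The site in the Hoxb8 intron was in 9 CEpiLC and 0 naive ESC libraries, that 202 bp before Hoxb2 in 12 and 2, that in the Hoxb3 intron in 8 and 1, and that in a UTR of Hoxb4, 183 bp after its start, in 8 and 1. The sites 4829 bp after the Hoxb1 start, in the Hoxb8 intron and in the Hoxb4 UTR were described only because they were gained in CEpiLC over naive ESC for at least 2 targets. Their excess in CEpiLC was therefore set by that choice.
Of the 11 sites, 8 held a TCF motif, compared with 29.2% of β-catenin and 13.3% of SOX2 summit windows of the same length genome-wide. A SOX motif was in 3, compared with 48.4% of SOX2 summit windows. A CDX motif was in 4 and a T/BRA motif in 2, compared with 6.41% and 13.7% of SOX2 summit windows. In RefSeq promoters of 300 bases the shares were 28.6% for SOX, 8.65% for TCF, 7.2% for CDX and 19.0% for T/BRA. The 11 sites were chosen for their number of libraries or their gain in CEpiLC, while the summit windows are those of every peak in every cut list. The shares are therefore not of like sites, and whether the TCF share is particular to Hoxb was not tested. These matches are of letters and do not show that a protein bound them.

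Lists of other genes were compared between CEpiLC and naive ESC in the same way. Over all pairs limma called 2.76% higher and 3.48% lower in CEpiLC. Of the 8 genes listed beside the cluster, 7 were in the annotation. In limma 0 of their 35 pairs were higher in CEpiLC than in naive ESC, which is near the share of all pairs, and 4 were lower. By the count of libraries 7 of the 35 were in 3 of 3 naive ESC and 0 of 3 CEpiLC libraries, where 2.6% of all pairs were. None was the other way round. In the other Hox clusters (29 genes) 33 of 143 pairs were higher and 0 lower, with a median difference of 1.21. Of the Hoxb genes, Hoxb1 to Hoxb4 had 12 of 20 higher, Hoxb5 to Hoxb9 7 of 25 and Hoxb13 3 of 5.
The Cdx genes had 0 of 15 pairs higher and 4 lower, and the Meis and Pbx genes, whose products bind DNA with HOX proteins, 6 of 30 higher and 0 lower. Caudal epiblast markers had 8 of 25 higher and 2 lower, and naive pluripotency markers 1 of 24 higher and 6 lower. Neural markers had 1 of 15 higher and 0 lower, and 5 of their 15 pairs were in 3 of 3 CEpiLC and 0 of 3 naive ESC libraries, a larger share than the 11 of 50 of the Hoxb genes. By limma, feeder fibroblast markers, from the cells on which ESCs were propagated, 0 of 15 in either direction. Outside the cluster, the genes whose counts over the 20 groups were nearest to those of Hoxb9 were Hoxa4 and Kdelc2, which differed by 9 of a possible 60. In all 7 genes differed by 10 or less, of which Cdon, Lrrc18 and Mef2d are named by alphabet among those tied at 10.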

How the data were processed

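The authors cross-linked cells with DSG and formaldehyde, sequenced single-end reads of 76 bp, aligned them to mm10 and called narrow peaks per library with MACS2. Of the 64 samples, 4 inputs have no peak list; which input served which list is not given in the sources used here. The deposited columns used were the fold enrichment (a ratio), the −log10 p and −log10 q values and the peak score (the last only read). Depth in reads is unknown, so no counting error is given. Peak ends all lay within GRCm38 chromosomes, and no replicates shared over 0.00658% of intervals.

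Summits were assigned to GENCODE vM21 gene windows, ranked by fold within the 20000 strongest peaks and scored as described above. Tests were exact permutation within line (400 assignments) and limma 3.58.1 in R 4.3.3, adjusted by Benjamini-Hochberg per target; Python 3.11.15, NumPy 2.4.6, pandas 2.3.3 and pysam 0.24.0 did the rest. Scores are bounded at 0 and tied, so limma p-values are approximate. Steps were tested on simulated data. The genes, lists, motifs and tests were chosen with earlier results of these data known, limma after seeing the permutation result. All 10 genes are named; sites described are the 8 with most libraries plus any in 3 of 3 CEpiLC and 0 of 3 naive ESC libraries for at least 2 targets; sequences are those of the 6 with most libraries; other genes come from fixed lists or are the 5 nearest to Hoxb9.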

Additional observations from a re-analysis of the deposited data

Results flagged for a closer look

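The difference between low-SOX2 and high-SOX2 cultures was unequal between the wild-type and the SOX2-TetON line in limma for 8 gene and target pairs. For SOX2 the difference of differences on the rank score, naive ESC minus CEpiLC less SOX2-ON minus SOX2-OFF, was -4.5 at Hoxb13, -3.02 at Hoxb7 and -2.94 at Hoxb8. For β-catenin it was -6.04 at Hoxb4, -3.64 at Hoxb9, -3.41 at Hoxb7, -3.22 at Hoxb2 and -3.19 at Hoxb8. Each lost its call without any 1 replicate and with log2 fold, and with a replicate block SOX2 at Hoxb7 (limma, adjusted p = 0.0622) and Hoxb8 (0.0661) were lost and TCF7L1 at Hoxb4 was called (0.0299). With full lists every β-catenin pair and SOX2 at Hoxb8 were lost. With lists of equal length β-catenin at Hoxb2, Hoxb7, Hoxb8 and Hoxb9 were lost. The exact permutation test of the same difference passed for none after adjustment, with a smallest adjusted p of 0.373 among the Hoxb genes. Hoxb7 and Hoxb8 share their strongest peaks. The lines differ in Sox2 genotype, and the wild-type comparison alone changes the medium, and these cannot be told apart.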

How the results depend on the processing

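No Hoxb pair called by limma between 2 conditions, or between the lines, turned direction under any alternative, and none stayed called under every one; the high against low SOX2 calls were refitted only with the replicate block, which left 17 of 19. Counting every deposited peak left 0 pairs gained in CEpiLC over naive ESC, SOX2-OFF or SOX2-ON, and 0 in SOX2-OFF over SOX2-ON. With peaks ranked by −log10 p the gained pairs were 7 over naive ESC and 5 over SOX2-OFF, and 1 in SOX2-ON over SOX2-OFF. With gene bodies alone they were 6 over naive ESC, with 0 in SOX2-OFF over SOX2-ON and 1 in SOX2-ON over CEpiLC. With 10 kb on either side they were 7 over naive ESC and 1 over SOX2-ON, with 1 in SOX2-ON over SOX2-OFF and 0 the other way. At equal list lengths 10 were gained over SOX2-ON. Asking for 2 more libraries of 3 gave 23 over naive ESC with 2 the other way, 28 over SOX2-OFF, 18 over SOX2-ON with 2 the other way, and between SOX2-ON and SOX2-OFF 11 and 2. Leaving out 1 replicate gave 14 to 17 over naive ESC with 0 to 1 the other way, 13 to 19 over SOX2-OFF, 6 to 10 over SOX2-ON with 0 to 2 the other way, 0 to 10 in SOX2-ON over SOX2-OFF and 1 to 2 in SOX2-OFF over SOX2-ON. The limma counts against naive ESC, SOX2-OFF and SOX2-ON were 9, 3 and 7 with full lists, 9, 6 and 9 with gene bodies alone, 7, 0 and 3 with log2 fold, and 6 to 17, 0 to 0 and 2 to 6 without 1 replicate. SOX2-ON below SOX2-OFF was 1 with full lists, with gene bodies alone and with log2 fold, 4 with 10 kb, and 0 to 2 without 1 replicate. The permutation tests passed for 0 pairs under each alternative run; leaving out a replicate cannot give a p under 0.0556 there and was not run. Linking distance set the number of sites, 140 at 150 bp and 68 at 500 bp.

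Same-numbered libraries deviated together only weakly, with a median correlation of 0.018, a range of -0.057 to 0.207 and 7 of 90 over 0.1, so the numbers were not taken to pair samples over the series. Of these 7, 6 were TCF7L1, and all 3 same-numbered pairs of SOX2-ON and SOX2-OFF were over 0.1 there (0.123, 0.196 and 0.207); with the block no Hoxb gene was called between those groups for TCF7L1 either. With a replicate block the limma counts were 21 over naive ESC, 7 over SOX2-OFF, 19 over SOX2-ON and 2 for SOX2-ON below SOX2-OFF, and the permutation test passed for 0 pairs.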
